A study of Mus musculus with 6 samples.

Results

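Astrocytes are the glial cells that take up glutamate and potassium, seal blood vessels with their endfeet and supply neurons with lipids and metabolites. In the rodent forebrain they arise from radial glia around birth, after most cortical neurons have formed, and they then mature over the first postnatal weeks. At birth an astrocyte transcript can therefore come from radial glia, from immature astrocytes or, for several of the genes below, from other cells. CELF2 is an RNA-binding protein of the CUGBP and ELAV-like family that acts in splicing and in the stability of messenger RNA.

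The genes described here are 30 markers of immature and maturing astrocytes, taken by symbol from a table of 24391 gene symbols with read counts. All 30 symbols were found, and all 30 passed the low-count filter that left 15925 genes for testing. RNA had been sequenced from frozen hemibrains of newborn mice at postnatal day 0. Libraries labelled Celf2 -/- (null, replicates 2, 4 and 10) were compared with libraries labelled Celf2 +/- (heterozygous, replicates 6, 7 and 11). The controls also lack 1 copy of Celf2, and no wild-type library was used here. The labels do not say how the allele was made, in which cells it acts, or which litter or sex a pup had.

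Counts per library summed to between 28831997 and 36531980, and the 30 genes together took 0.282% to 0.424% of them in null libraries and 0.436% to 0.478% in heterozygous libraries. Levels are counts scaled to a common library total (CPM), with library sizes scaled by the trimmed mean of M values (TMM). Celf2 itself held 448, 390 and 331 CPM in null replicates 2, 4 and 10, against 459, 403 and 362 CPM in heterozygous replicates 6, 7 and 11. The groups overlapped. A total over the gene does not show which of its exons the reads came from, so the genotypes below are those of the labels, unchecked. Null replicate 2 stood apart, with 11.8% of its counts on the ribosomal RNA precursor Rn45s, against 0.194% to 1.27% in the other 5 libraries. Xist was at 1346 and 1275 CPM in null replicates 4 and 10 and at 1140 CPM in heterozygous replicate 7, and below 1 CPM in the rest. Ddx3y was at 0 CPM where Xist was high. It was at 65.5 CPM in null replicate 2 and at 66.0 and 80.0 CPM in heterozygous replicates 6 and 11. The groups were thus not balanced for high Xist (above 100 CPM), and a fit with a term for it is given at the end. Neuronal markers, which define the labelled tissue, were present in every library, at a sum of 5887 to 6262 CPM over 10 genes in null libraries and 5752 to 6538 CPM in heterozygous libraries.

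Most of the astrocyte genes had lower mean levels in the libraries labelled null, but no single gene passed the test. Of the 30 genes, 29 had a negative log2 fold change (null minus heterozygous), against 50.3% of all genes tested. The 30 genes had been chosen with earlier results of these data known. They are also not separate observations, since their log2 CPM across the 6 libraries had a median r of 0.58 over pairs. The median log2 fold change over the 30 genes was -0.18, and that over all genes tested was -0.001. With edgeR's quasi-likelihood test and Benjamini-Hochberg adjustment over all genes tested, 0 of the 30 passed at 0.05, and 0.00628% of all genes tested did. The smallest edgeR adjusted p among the 30 was 0.488, for Apoe. At an unadjusted p under 0.05, 10 of the 30 genes were lower and 0 were higher, where 2.93% of all genes tested were lower and 4.13% higher. The groups did not overlap for 8 of the 30 genes, all lower in null (Apoe, Bcan, Agt, S100b, Slc25a18, Slc7a10, Slc1a2 and Hepacam), and for 0 that were higher. Of all genes tested, 6.47% were lower without overlap and 6.21% higher. The DESeq2 Wald test also called 0 of the 30, with a smallest adjusted p of 0.109, and it called 0.402% of all genes tested. The limma-voom test called 0 of the 30 and 0% of all genes. In these bulk samples, fewer astrocytes and less of each RNA per astrocyte cannot be told apart. Other lists, described below, also leaned to one side. All 10 telencephalic genes had positive fold changes. All 8 tested Hox genes and 16 of 17 tested oligodendrocyte lineage genes had negative ones. The part of tissue composition in the astrocyte values was not tested.

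The difference was uneven over the 3 null libraries. Null replicate 2 lay below the lowest heterozygous library for 23 of the 30 genes and above the highest for 0. Null replicate 10 lay below for 20 genes and above for 0. Null replicate 4 lay below for 9 genes, above for 6 and within the heterozygous range for 15. Among all genes tested, 29.6%, 26.1% and 26.5% lay below every heterozygous library in null replicates 2, 10 and 4, and 27.3%, 26.9% and 26.2% lay above. The counts of null replicate 4 were thus near or under the shares over all genes. The log2 CPM averaged over the 30 genes, relative to the mean of the 6 libraries, was -0.33, 0.09 and -0.13 for null replicates 2, 4 and 10. For heterozygous replicates 6, 7 and 11 it was 0.07, 0.22 and 0.09. Null replicate 4 thus sat among the heterozygous libraries. Without null replicate 2 the number of genes lower at an unadjusted p under 0.05 was 6, and without heterozygous replicate 7 it was 4. Without null replicate 4 it was 17. The median over the 30 genes lay between -0.33 and -0.15 when single libraries were left out.

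**Figure D1:**
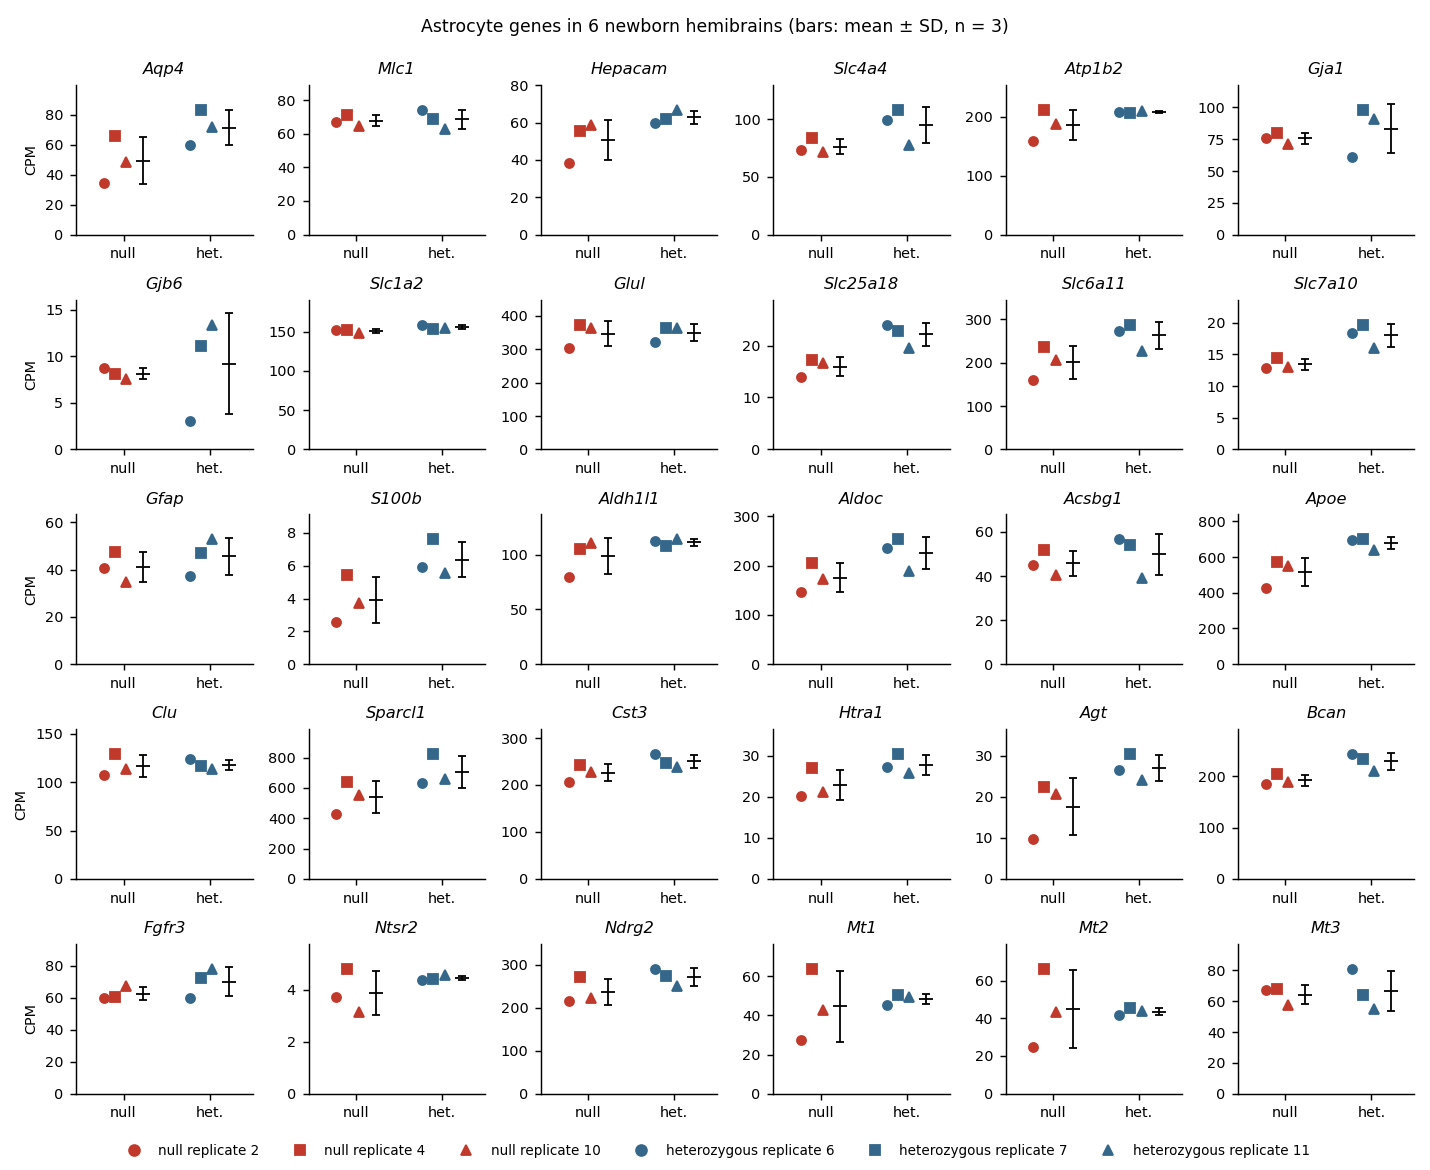
CPM of each of the 30 astrocyte genes in the 3 null libraries (red) and the 3 heterozygous libraries (blue), 1 panel a gene with its own axis from 0, and the mean ± SD of each group (n = 3) as a black bar. Null replicate 2 (red circle) is the lowest library for 20 of the 30 genes, and null replicate 4 (red square) often lies at the level of the heterozygous libraries.

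Genes of the astrocyte endfoot and its channels had a median log2 fold change of -0.31 over 5 genes, and 0 of the 5 passed (2 were lower at an unadjusted p under 0.05, and DESeq2 called 0). Without null replicate 2, the library with the high share of Rn45s, the median was -0.14. Aqp4, the water channel of endfeet, had 34.1, 65.8 and 48.1 CPM in null replicates 2, 4 and 10, against 59.5, 83.1 and 71.5 CPM in heterozygous replicates 6, 7 and 11. The groups overlapped because null replicate 4 exceeded heterozygous replicate 6. The log2 fold change was -0.53 (SE 0.23, edgeR adjusted p = 0.707), and -0.32 without null replicate 2. Hepacam, an adhesion protein that holds the MLC1 channel complex at cell junctions, had 38.5, 55.4 and 58.5 CPM in null libraries and 60.0, 62.1 and 66.9 CPM in heterozygous libraries. Every null library lay below every heterozygous one, and the log2 fold change was -0.31 (SE 0.14, edgeR adjusted p = 0.71), or -0.14 without null replicate 2. Mlc1, the membrane protein that HEPACAM binds, was at 67.8 ± 3.37 CPM in null libraries and 68.6 ± 5.59 CPM in heterozygous libraries (SD, n = 3 each). Its 95% interval for the null level ran from 86.2% to 113% of the heterozygous level. Slc4a4, a sodium bicarbonate cotransporter, had 73.1, 83.9 and 71.8 CPM in null libraries and 99.4, 108 and 77.9 CPM in heterozygous libraries. Null replicate 4 exceeded heterozygous replicate 11, so the groups overlapped (log2 fold change -0.32, SE 0.12, edgeR adjusted p = 0.639). Atp1b2, a subunit of the sodium pump that is enriched in glia, was at 186 ± 26.0 CPM in null and 208 ± 1.14 CPM in heterozygous libraries, a log2 fold change of -0.16 (-0.06 without null replicate 2, -0.26 without null replicate 4).

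Of the 5 genes that handle glutamate and GABA, Slc1a2 and Glul had mean levels in null libraries close to those in heterozygous libraries. Slc1a2, the main glutamate transporter of mature astrocytes, had 153, 152 and 148 CPM in null replicates 2, 4 and 10 and 159, 153 and 155 CPM in heterozygous replicates 6, 7 and 11. The groups did not overlap, yet the null level was 96.8% of the heterozygous level, with a 95% interval of 88.1% to 106%. Glul, the glutamine synthetase that converts the glutamate taken up, was at 347 ± 38.4 CPM in null libraries and 350 ± 25.0 CPM in heterozygous libraries (SD, n = 3 each). Of the k-mers of 50 bases in its transcripts, 11.9% also occur in transcripts of other genes, a pseudogene among them, so part of its count is uncertain.

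The other 3 transporters of this set had lower mean levels in null libraries. Slc25a18, a mitochondrial glutamate carrier, had 13.9, 17.3 and 16.6 CPM in null libraries and 24.0, 22.8 and 19.6 CPM in heterozygous libraries. The groups did not overlap, and the log2 fold change was -0.47 (SE 0.13, edgeR adjusted p = 0.496). Slc7a10, an exchanger of small neutral amino acids such as D-serine, had 12.9, 14.5 and 13.0 CPM in null libraries and 18.3, 19.7 and 16.1 CPM in heterozygous libraries, again without overlap. Its log2 fold change was -0.42 (SE 0.13, edgeR adjusted p = 0.527). The annotated exons of Lrp3 on the opposite strand cover 17.9% of the exon bases of Slc7a10, and whether the counting used strand is not given in the sources used here. Slc6a11, the GABA transporter GAT3, had 159, 235 and 207 CPM in null libraries and 273, 288 and 228 CPM in heterozygous libraries. Null replicate 4 exceeded heterozygous replicate 11, so the groups overlapped (log2 fold change -0.39, SE 0.14, edgeR adjusted p = 0.639, and -0.25 without null replicate 2).

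**Figure D2:**
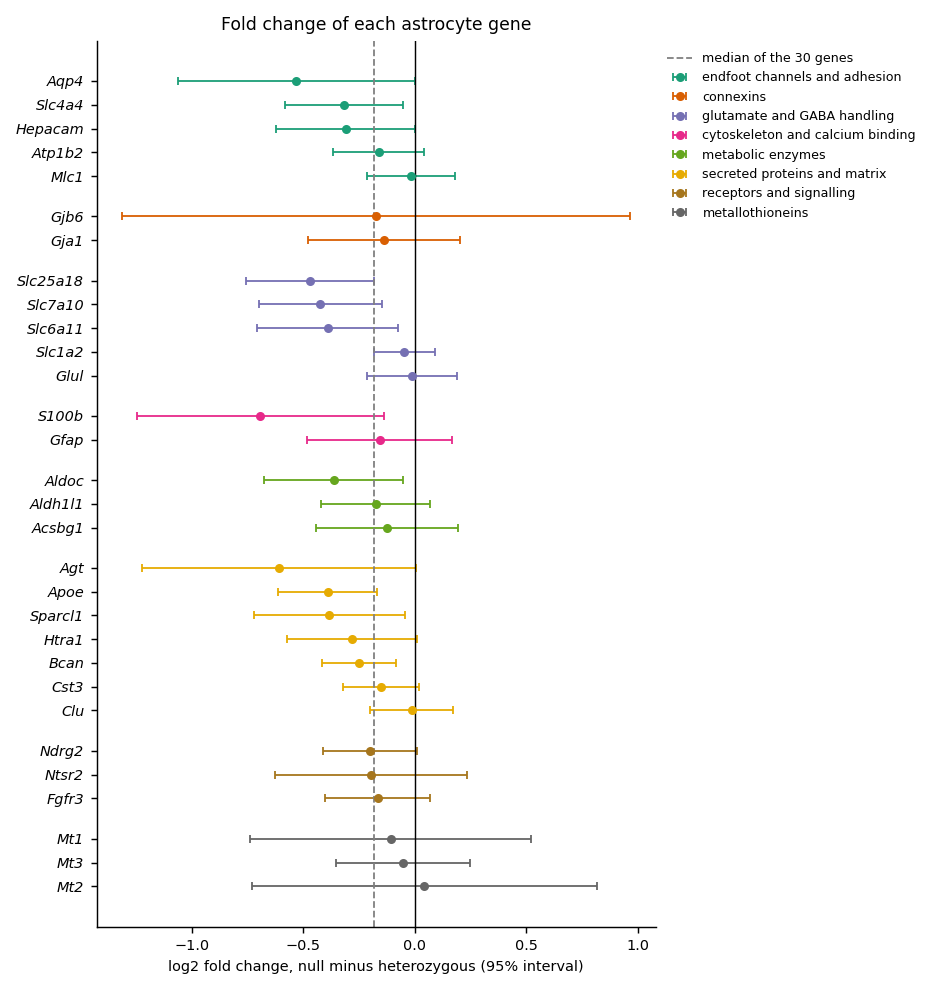
Log2 fold change, null minus heterozygous, of each of the 30 genes with its 95% interval, grouped by role, with the median of -0.18 as a dashed line. Points lie left of 0 for 29 genes, and Mlc1, Glul, Slc1a2, Clu and the metallothioneins lie nearest to 0 or right of it.

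Gfap and S100b are the classic protein markers of astrocytes. S100b, a calcium-binding protein, had 2.60, 5.42 and 3.71 CPM in null replicates 2, 4 and 10 and 5.92, 7.61 and 5.58 CPM in heterozygous replicates 6, 7 and 11. The groups did not overlap, although null replicate 4 lay just under heterozygous replicate 11. S100b had the most negative log2 fold change of the 30 genes in the TMM-scaled edgeR fit, at -0.69 (SE 0.25, edgeR adjusted p = 0.63), and its lowest library held 66 counts. Gfap, the intermediate filament of astrocytes, had 40.5, 47.4 and 34.7 CPM in null libraries and 37.3, 47.0 and 52.7 CPM in heterozygous libraries. Its groups overlapped, with a null level of 89.6% of the heterozygous level (95% interval 71.7% to 112%).

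Among the metabolic enzymes, Aldoc, the brain form of fructose-bisphosphate aldolase, had 147, 206 and 173 CPM in null libraries and 235, 253 and 189 CPM in heterozygous libraries. Only null replicate 4 reached into the heterozygous range, and the log2 fold change was -0.36 (SE 0.14, edgeR adjusted p = 0.639). Aldh1l1, a folate enzyme used as a marker of all astrocytes, had 80.1, 106 and 111 CPM in null libraries and 112, 108 and 114 CPM in heterozygous libraries. The low value was that of null replicate 2, and the log2 fold change without it was -0.04 (-0.17 with all libraries). The antisense gene Gm15756 covers 11.0% of the exon bases of Aldh1l1. Acsbg1, a fatty acyl-CoA synthetase, was at 45.8 ± 5.78 CPM in null and 49.9 ± 9.33 CPM in heterozygous libraries, with overlap.

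Secreted proteins included the most abundant astrocyte transcript per length, Apoe, the lipoprotein that carries cholesterol to neurons. Apoe had 429, 573 and 551 CPM in null replicates 2, 4 and 10 and 695, 700 and 640 CPM in heterozygous replicates 6, 7 and 11. All null libraries lay below all heterozygous ones, and the log2 fold change was -0.39 (SE 0.10, edgeR adjusted p = 0.488), a null level of 76.3% of the heterozygous level. Its log2 fold change lay between -0.47 and -0.27 when single libraries were left out. Microglia also express Apoe. The 14 microglial markers summed to 163 to 195 CPM in null libraries and 165 to 186 CPM in heterozygous libraries, with none at 0, and 7 of them had negative and 7 positive fold changes.

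Sparcl1, a matrix protein that promotes synapse formation, had 430, 639 and 550 CPM in null libraries and 632, 822 and 659 CPM in heterozygous libraries. Null replicate 4 exceeded heterozygous replicate 6, and the log2 fold change was -0.38 (SE 0.15, edgeR adjusted p = 0.653), or -0.24 without null replicate 2. Agt, the angiotensin precursor, had 9.77, 22.3 and 20.7 CPM in null libraries and 26.4, 30.3 and 24.0 CPM in heterozygous libraries. The groups did not overlap, but null replicate 2 was far below every other library. The log2 fold change was -0.61 with all libraries (edgeR adjusted p = 0.71) and -0.32 without null replicate 2. Bcan, the proteoglycan brevican, had 184, 205 and 189 CPM in null libraries and 243, 233 and 211 CPM in heterozygous libraries. Its groups did not overlap, with a log2 fold change of -0.25 (SE 0.08, edgeR adjusted p = 0.527).

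For the remaining 3 secreted proteins the groups overlapped. Htra1, a serine protease, had a log2 fold change of -0.28 (95% interval -0.57 to 0.01, edgeR adjusted p = 0.728), and -0.42 without null replicate 4. Cst3, the protease inhibitor cystatin C, was at 226 ± 18.2 CPM in null and 251 ± 13.6 CPM in heterozygous libraries, a log2 fold change of -0.15 (-0.09 without null replicate 2). Clu, the chaperone clusterin, was at 117 ± 11.1 CPM in null and 118 ± 5.33 CPM in heterozygous libraries, and its null level had a 95% interval of 87.1% to 113% of the heterozygous level. The choroid plexus also expresses Clu and Cst3. Its 10 markers summed to 567 to 821 CPM in null libraries and 594 to 873 CPM in heterozygous libraries, with none at 0 and 8 of 10 fold changes positive, and their part in these values was not tested.

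Of the receptors and signalling proteins, Fgfr3, a fibroblast growth factor receptor of glial progenitors, had 60.0, 60.5 and 67.2 CPM in null libraries and 59.9, 72.6 and 78.1 CPM in heterozygous libraries. The groups overlapped (log2 fold change -0.17, 95% interval -0.40 to 0.07), and an antisense transcript covers 13.9% of its exon bases. Ndrg2, a protein of differentiating astrocytes, was at 237 ± 30.4 CPM in null and 272 ± 20.6 CPM in heterozygous libraries (log2 fold change -0.20, 95% interval -0.41 to 0.01). Ntsr2, a neurotensin receptor, was at 3.88 ± 0.85 CPM in null and 4.45 ± 0.09 CPM in heterozygous libraries, and its lowest library held 92 counts.

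The connexins that join astrocytes into a network varied more within the heterozygous group than within the null group. Gjb6 (connexin 30) had 8.71, 8.12 and 7.58 CPM in null replicates 2, 4 and 10 and 3.07, 11.1 and 13.4 CPM in heterozygous replicates 6, 7 and 11. Gja1 (connexin 43) had 75.7, 79.8 and 71.4 CPM in null libraries and 61.3, 98.1 and 90.5 CPM in heterozygous libraries. For both genes the null libraries lay between heterozygous replicate 6 and the other heterozygous libraries. Meningeal cells also express connexins, and 8 meningeal markers summed to 312, 348 and 260 CPM in null replicates 2, 4 and 10 and to 174, 407 and 376 CPM in heterozygous replicates 6, 7 and 11. None of the 8 was at 0, and 6 of 8 had negative fold changes. Heterozygous replicate 6 was the lowest library for Gjb6, Gja1 and the summed meningeal markers. Its mean deviation was the lowest of all libraries for the meningeal list (-0.70). By less, it was also lowest for the choroid plexus (-0.22), reactive astrocyte (-0.25) and gliogenic signalling (-0.16) lists. The part of meningeal RNA in the connexin values was not tested. The log2 fold change of Gjb6 was -0.17, and it was positive with limma-voom (0.11) and without heterozygous replicate 11 (0.21).

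Metallothioneins are small cysteine-rich proteins that bind zinc and copper. Mt1 and Mt2 are induced by metals through the factor MTF1 and by glucocorticoids, whereas Mt3 is the brain form and responds little to metals. Mt3, Mt2 and Mt1 lie side by side on mouse chromosome 8, with a long noncoding RNA gene between Mt3 and Mt2. The RefSeq promoter sequences, the 250 bases before each annotated start in GRCm38.p6, are shown to set the 3 genes side by side. Capitals mark matches on either strand to the metal response element core, TGCACNC or TGCGCNC.
Mt1: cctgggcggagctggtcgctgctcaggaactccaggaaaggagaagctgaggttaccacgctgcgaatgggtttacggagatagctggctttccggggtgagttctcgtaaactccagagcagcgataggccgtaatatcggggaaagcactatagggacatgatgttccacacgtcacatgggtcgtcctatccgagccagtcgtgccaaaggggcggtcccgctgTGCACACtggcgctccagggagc
Mt2: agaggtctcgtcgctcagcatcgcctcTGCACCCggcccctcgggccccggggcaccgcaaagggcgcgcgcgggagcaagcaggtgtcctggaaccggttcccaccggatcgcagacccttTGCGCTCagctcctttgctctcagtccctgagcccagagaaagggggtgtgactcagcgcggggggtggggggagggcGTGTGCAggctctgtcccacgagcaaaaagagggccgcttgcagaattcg
Mt3: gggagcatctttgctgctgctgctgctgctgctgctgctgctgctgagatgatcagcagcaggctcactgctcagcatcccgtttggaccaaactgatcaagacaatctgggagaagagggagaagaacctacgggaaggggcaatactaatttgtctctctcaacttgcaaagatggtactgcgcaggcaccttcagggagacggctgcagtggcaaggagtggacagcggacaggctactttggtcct

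These windows lie on the plus strand at chr8:94178839-94179088 for Mt1, chr8:94172368-94172617 for Mt2 and chr8:94152357-94152606 for Mt3. The core occurred 1 time in the Mt1 window, 3 times in the Mt2 window and 0 times in the Mt3 window. Of all 32851 promoter windows of that length, 21.4% held at least 1 match and 1.26% at least 3. Of the 30 genes, 26 had a window, and 6 of their 33 windows held a match, those of Glul, Slc4a4, Slc6a11 and Slc7a10 among them. A match describes the letters, and its absence says only that they are not in this window. Bases outside the windows, those after the annotated start included, were not searched, so these counts do not rank the genes by their number of elements.

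Mt1 had 27.6, 63.8 and 42.9 CPM in null replicates 2, 4 and 10 and 45.3, 50.5 and 49.3 CPM in heterozygous replicates 6, 7 and 11. Mt2 had 24.8, 66.2 and 43.3 CPM in null libraries and 41.8, 45.3 and 43.7 CPM in heterozygous libraries. Null replicate 4 was the highest and null replicate 2 the lowest of the 6 libraries for both genes, while the heterozygous libraries lay close together. The ratio of Mt1 to Mt2 stayed between 0.96 and 1.11 in null libraries and between 1.08 and 1.13 in heterozygous libraries. Mt3 had 67.5, 68.1 and 57.3 CPM in null libraries and 81.0, 64.2 and 54.9 CPM in heterozygous libraries, and the ratio of Mt1 to Mt3 ran from 0.41 to 0.94 in null and from 0.56 to 0.90 in heterozygous libraries. Across the 6 libraries, log2 CPM of Mt1 and Mt2 correlated at r = 0.98, and Mt1 and Mt3 at r = -0.06, values that share the same libraries and depth. This was not particular to the metallothioneins, since 54 of the 435 pairs among the 30 genes had r above 0.9, Aldoc with Slc6a11 (0.98) and Mt1 with Atp1b2 (0.92) among them, and the median over pairs was 0.58. The log2 fold changes were -0.11 for Mt1, 0.04 for Mt2 and -0.05 for Mt3. That of Mt1 was 0.14 without null replicate 2, and that of Mt2 turned negative with library size alone, limma-voom, a term for high Xist and without null replicate 4. No 50-base k-mer was shared between these genes and others, but the antisense gene Gm45774 covers 73.5% of the exon bases of Mt2.

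**Figure D3:**
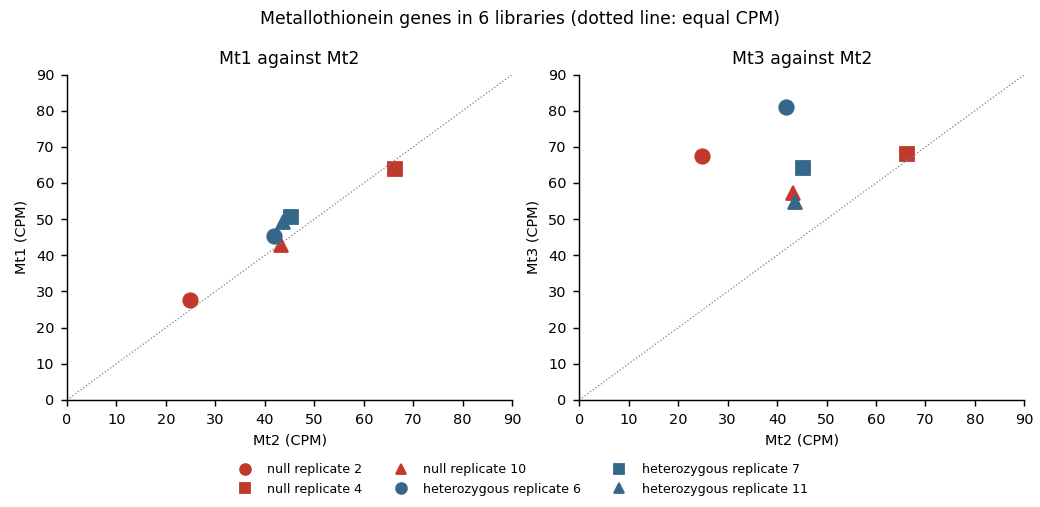
CPM of Mt1 (left) and Mt3 (right) against CPM of Mt2 in the 3 null libraries (red) and 3 heterozygous libraries (blue), with a dotted line of equal CPM. Mt1 and Mt2 lie along the line from null replicate 2, at 24.8 CPM of Mt2, to null replicate 4, at 66.2 CPM, and Mt3 does not follow.

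Compared per length, as CPM per kilobase of the deposited gene length, the level of the 30 genes spanned more than 2 orders of magnitude. Apoe was highest, at 326 ± 48.9 in null and 428 ± 20.8 in heterozygous libraries (SD, n = 3 each), above 99.6% of all genes tested. Cst3 followed at 304 ± 24.5 in null and 338 ± 18.3 in heterozygous libraries, and Sparcl1 at 173 ± 33.6 in null and 226 ± 33.1 in heterozygous libraries. The levels of Glul, Mt3 and Ndrg2 did not differ from one another beyond their spread, at 110 to 124 in null and 124 to 126 in heterozygous libraries. Slc1a2, abundant in the adult cortex, was at 12.5 ± 0.20 in null and 12.9 ± 0.23 in heterozygous libraries, near Agt, Htra1 and Slc4a4. The lowest were Gjb6 at 3.70 ± 0.26 in null and 4.18 ± 2.47 in heterozygous libraries, S100b at 2.35 ± 0.86 in null and 3.83 ± 0.65 in heterozygous libraries, and Ntsr2 at 2.51 ± 0.55 in null and 2.88 ± 0.06 in heterozygous libraries. Aqp4 and Slc7a10 ranked just above these, at 26 and 27 of the 30.

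**Figure D4:**
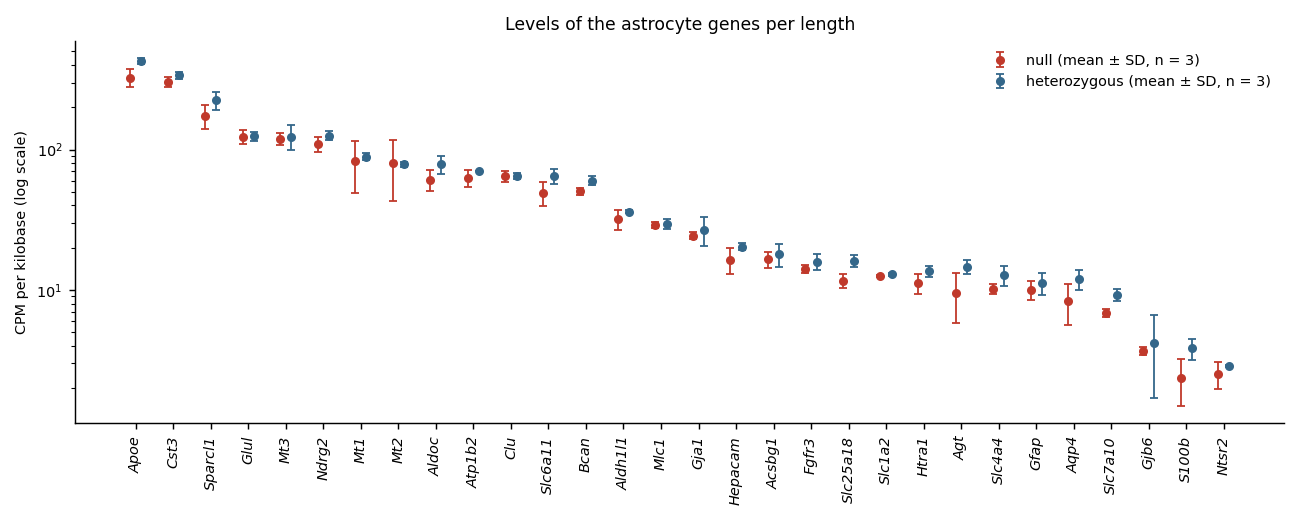
Level of each of the 30 genes in CPM per kilobase on a log scale, ordered by its mean over 6 libraries, with mean ± SD of the null (red) and heterozygous (blue) libraries (n = 3 each). Apoe and Cst3 are the highest in both groups, at 304 to 428, and S100b and Ntsr2 lie below 4.

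A second list of 30 astrocyte genes had mostly negative fold changes, 25 of 30, with a median of -0.14. It comes from the same 6 libraries and was chosen with earlier results of these data known, so it is not independent support. In edgeR and in DESeq2 0 of them passed, and at an unadjusted p under 0.05 edgeR counted 2 lower and 1 higher. Its genes with the smallest p were Ttyh1, a chloride channel of glia and progenitors (log2 fold change -0.26, edgeR adjusted p = 0.55), and Pla2g7, a phospholipase (-0.44, edgeR adjusted p = 0.639). Ttyh1 had 199, 239 and 233 CPM in null replicates 2, 4 and 10 and 287, 259 and 259 CPM in heterozygous replicates 6, 7 and 11, without overlap. The list average, relative to the mean of the 6 libraries, was -0.22, 0.04 and -0.03 in null libraries, against 0.13, 0.05 and 0.03 in heterozygous libraries, so null replicate 2 was again lowest.

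Transcription factors and signals that act on glial fate, in either direction, had more positive than negative fold changes. Of 19 glial fate transcription factors, 12 had positive and 7 negative fold changes, with a median of 0.06. In edgeR and in DESeq2 0 passed, and 2 were higher and 1 lower at an unadjusted edgeR p under 0.05. Nfix, a nuclear factor I protein that promotes glial differentiation, had 543, 560 and 645 CPM in null libraries and 508, 397 and 457 CPM in heterozygous libraries, a log2 fold change of 0.36 (edgeR adjusted p = 0.496). Lhx2, which holds cortical progenitors in a neurogenic state and is also among the telencephalic genes below, was at 0.35 (edgeR adjusted p = 0.622). Of 27 tested gliogenic signalling genes, 21 were positive, with a median of 0.08. In edgeR 0 passed, with 4 higher and 1 lower at an unadjusted p under 0.05, and DESeq2 called 1, Fgfr1 (DESeq2 adjusted p = 0.0142). Fgfr1, a fibroblast growth factor receptor, had 117, 112 and 107 CPM in null libraries and 83.7, 82.5 and 92.2 CPM in heterozygous libraries (log2 fold change 0.38, edgeR adjusted p = 0.368). Smad4, the shared mediator of bone morphogenetic protein signals, was at 0.28 (edgeR adjusted p = 0.57).

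Radial glia markers, the progenitor side of the lineage, had 8 positive and 6 negative fold changes over 14 genes, with a median of 0.10. The lists are not separate. Radial glia shares Fabp7 and Slc1a3 with the second astrocyte list and Vim with the reactive list. It shares Sox2, Hes1 and Hes5 with the glial fate factors. In edgeR and in DESeq2 0 passed, and 2 were higher and 0 lower at an unadjusted edgeR p under 0.05. Tnc, a matrix protein of radial glia, had 273, 250 and 217 CPM in null libraries and 190, 197 and 196 CPM in heterozygous libraries, without overlap (log2 fold change 0.34, edgeR adjusted p = 0.456). Ptprz1, a receptor phosphatase, was at 0.20 (edgeR adjusted p = 0.699). Genes of reactive astrocytes had a median of 0.11 over 16 tested genes. In edgeR and in DESeq2 0 passed, and 1 was higher at an unadjusted edgeR p under 0.05, with S1pr3 at 0.48 (edgeR adjusted p = 0.647) and Ptx3 at 0.40 (edgeR adjusted p = 0.757). The reactive list deviated by 0.55 in null replicate 4, the library with the highest Mt1 and Mt2, and by -0.05 and -0.16 in null replicates 2 and 10, against -0.25, 0.02 and -0.10 in heterozygous replicates 6, 7 and 11. Of 14 tested metal handling genes, 7 were positive and 7 negative, with a median of -0.01. In edgeR 0 passed, with 1 higher and 1 lower at an unadjusted p under 0.05, and DESeq2 called 1, Slc30a3 (DESeq2 adjusted p = 0.037). Slc30a3, the zinc transporter of synaptic vesicles, had 3.98, 7.53 and 4.28 CPM in null libraries and 11.7, 11.7 and 7.95 CPM in heterozygous libraries (-0.98, edgeR adjusted p = 0.496), and Slc39a6, a zinc importer, was at 0.29 (edgeR adjusted p = 0.379).

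**Figure D5:**
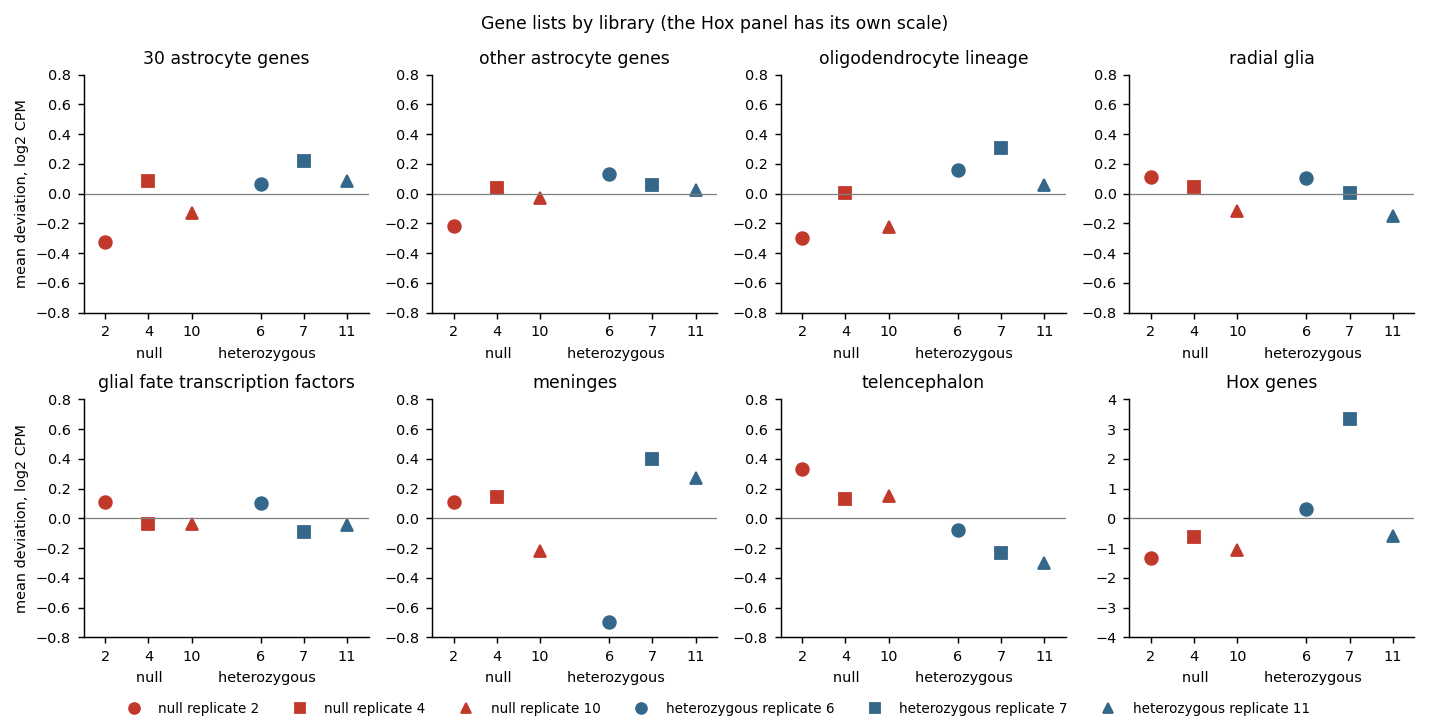
Mean deviation of log2 CPM from the 6-library mean, for 8 gene lists in null replicates 2, 4 and 10 (red) and heterozygous replicates 6, 7 and 11 (blue), with a wider scale for the Hox genes. The 30 astrocyte genes and the oligodendrocyte lineage are lowest in null replicate 2 and highest in heterozygous replicate 7, and the Hox genes reach 3.33 in heterozygous replicate 7.

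Oligodendrocyte lineage markers leaned the same way as the astrocyte genes, with 16 of 17 tested fold changes negative and a median of -0.26. In edgeR 0 passed, with 5 lower and 0 higher at an unadjusted p under 0.05, and DESeq2 called 1 lower, Mobp (DESeq2 adjusted p = 0.0432). Mag, a protein of myelin, had 2.28, 3.64 and 3.77 CPM in null libraries and 5.22, 7.57 and 5.50 CPM in heterozygous libraries (-0.90, edgeR adjusted p = 0.482). Mobp, another myelin gene, had 0.04, 0.18 and 0.14 CPM in null libraries and 0.97, 1.68 and 0.31 CPM in heterozygous libraries (-2.95, edgeR adjusted p = 0.423). Its null values lay near the floor, since 3 counts equal 0.12 CPM in null replicate 2, so the size of this fold change is uncertain. The 18 markers summed to 472 to 590 CPM in null libraries and 537 to 625 CPM in heterozygous libraries, and Opalin was at 0 in 1 null and all 3 heterozygous libraries.

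Markers of brain regions also moved with the groups. The 18 Hox genes, expressed in the hindbrain and spinal cord but not in the forebrain, summed to 3.82, 7.41 and 3.67 CPM in null replicates 2, 4 and 10 and to 21.8, 203 and 10.8 CPM in heterozygous replicates 6, 7 and 11. All 8 tested Hox genes had negative fold changes. In edgeR 0 passed, 5 were lower at an unadjusted p under 0.05 and DESeq2 called 4 lower, with Hoxb2 at -2.93 (edgeR adjusted p = 0.438) and Hoxa2 at -1.97 (edgeR adjusted p = 0.527). Hoxb1 was at 0 in all 6 libraries. The 10 telencephalic genes summed to 1710, 1483 and 1478 CPM in null libraries and 1243, 1169 and 1122 CPM in heterozygous libraries, all with positive fold changes and a median of 0.45. In edgeR 0 passed, 8 were higher at an unadjusted p under 0.05 and DESeq2 called 3 higher, with Neurod6 at 0.53 (edgeR adjusted p = 0.062) and Fezf2 at 0.54 (edgeR adjusted p = 0.353). Heterozygous replicate 7 held both the highest Hox sum and the highest mean of the astrocyte genes. Null replicate 2 held both the highest telencephalic sum and the lowest mean of the astrocyte genes. Null replicate 4 and heterozygous replicate 11 had the same mean of the astrocyte genes (0.09). Their telencephalic sums were 1483 and 1122 CPM, and their Hox sums were 7.41 and 10.8 CPM. The part of regional composition in the astrocyte values was not tested.

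The lists of other cell types had medians between -0.09 and 0.07. Neurons had a median of -0.09 over 10 genes, with Rbfox3 at -0.15 (edgeR adjusted p = 0.779) and Stmn2 at -0.11 (edgeR adjusted p = 0.816). Microglia had a median of -0.02, with Siglech at 0.53 (edgeR adjusted p = 0.682) and P2ry12 at 0.51 (edgeR adjusted p = 0.742). Endothelium and pericytes had a median of 0.05, with Kdr at 0.39 (edgeR adjusted p = 0.57) and Ly6c1 at -0.47 (edgeR adjusted p = 0.703). The choroid plexus median was 0.07, with Otx2 at 0.15 (edgeR adjusted p = 0.923) and Folr1 at 0.19 (edgeR adjusted p = 0.944). The meningeal median was -0.05, with Slc6a13 at -0.13 (edgeR adjusted p = 0.964) and Ogn at -0.09 (edgeR adjusted p = 0.984). The immediate-early genes had a median of 1.63 and summed to 401, 1147 and 88.3 CPM in null replicates 2, 4 and 10, against 121, 90.2 and 91.4 CPM in heterozygous replicates 6, 7 and 11. Their leading genes were Egr1 at 3.26 (edgeR adjusted p = 0.707) and Fos at 4.03 (edgeR adjusted p = 0.717). In each of these 6 lists 0 genes passed in edgeR or DESeq2. At an unadjusted edgeR p under 0.05, 1 microglial gene, 1 endothelial gene and 1 immediate-early gene were higher and 1 endothelial gene lower.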

How the data were processed

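The authors deposited raw read counts per gene symbol for 6 hemibrain libraries, 3 a genotype, with a gene length. The submitters' processing notes name mm9 and hg19 as builds and, as tools, STAR, cutadapt, CASAVA, bedtools, Picard and MACS2, with no roles. How reads were counted, with what annotation and whether by strand, is not given in the sources used here. The labels' protocols name a stranded total RNA kit, while the molecule field names poly(A) RNA. No column belonged to another sample.

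Counts were filtered with filterByExpr, scaled by TMM and tested with the quasi-likelihood test of edgeR 4.0.16 (R 4.3.3, robust dispersion). Adjusted p-values are Benjamini-Hochberg values over all genes tested, with a threshold of 0.05. Standard errors were derived from the fold change and its F statistic. The biological coefficient of variation was 13.9%. DESeq2 1.42.0 and limma 3.58.1 served as alternatives. Libraries were compared in pairs by a chi-square over genes. Its lowest value per gene, 13.4, shows more than sampling noise between every pair. P-values set the difference between groups against the spread between libraries of the same label.

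List deviations use log2(CPM + 0.1). Sequences came from RefSeq (GRCm38.p6), and transcripts and exons from GENCODE for GRCm38, not the build of the counts. All 30 members were named. From each other list, every gene that passed and the 2 genes with the smallest p were named. The members and lists were chosen with earlier results of these data known.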

Additional observations from a re-analysis of the deposited data

How the results depend on the processing

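Across 16 alternatives, 0 of the 30 astrocyte genes passed, and the smallest adjusted p for any of them ran from 0.0642 (a term for high Xist, chosen after seeing the data) to 0.999876 (without heterozygous replicate 7). The median log2 fold change of the 30 genes was negative in every alternative, from -0.33 to -0.15 without single libraries and from -0.27 (library size alone, where all genes tested had a median of -0.086) to -0.18 in the others. Negative fold changes numbered 26 to 30. Genes lower at an unadjusted p under 0.05 numbered 4 to 17 without single libraries and 10 to 15 in the others. Genes called among all tested numbered 1 with TMM factors and all libraries, 64 with DESeq2, 3 without a low-count filter, 2 with upper-quartile factors, library size alone, or library size alone with Rn45s left out, and 10 with the Xist term. They numbered 0 with DESeq2 size factors, a CPM minimum, limma-voom or no robust estimation, and 0 to 4 without single libraries.

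Of 480 comparisons of a gene with an alternative, 463 kept their direction and 17 did not. Mt2 (0.04) was at -0.014 with library size alone, -0.040 with limma-voom, -0.24 with the Xist term and between -0.35 and 0.33 without single libraries. Gjb6 (-0.17) was at 0.11 with limma-voom and between -0.59 and 0.21 without single libraries. Without single libraries, Clu lay between -0.092 and 0.045, Glul between -0.070 and 0.078, Mlc1 between -0.076 and 0.043, Mt1 between -0.45 and 0.14 and Mt3 between -0.18 and 0.11. The cause was not tested. No paired analysis was possible because the labels give no litter or batch by which to pair libraries. With 3 libraries a group, the 95% interval of Gjb6 allowed a null level of 40.3% to 195% of the heterozygous level, while that of Slc1a2 allowed 88.1% to 106%.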
